A study of Mus musculus with 82 samples.

Results

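Plasma cells captured by laser from inflamed peritoneal tissue of mice were compared between day 33 and day 17 after tumour initiation, with the question of which transcripts moved in the same direction in both of 2 independent cohorts. The members are the laser-captured arrays of these 2 days: 22 of the 82 arrays of the series, from 13 specimens, out of 55 captured arrays from 30 specimens over all days. In study 1, day 33 held 5 arrays of 3 specimens and day 17 held 5 arrays of 4 specimens. In study 2, day 33 held 6 arrays of 3 specimens and day 17 held 6 arrays of 3 specimens. All groups were BALB/c.iMycEμ mice, in which a Myc gene sits in the immunoglobulin heavy chain locus and is driven by its enhancer in B lineage cells, and all had received 0.5 ml of pristane oil into the peritoneum at an age of at least 8 weeks. There was no untreated or transgene-free group, so day 17 is the only reference. The labels call the captured cells nascent plasma cell tumour cells. They were picked from frozen sections of the oil granulomata by methyl green pyronin, a stain for RNA-rich cytoplasm, and their RNA went through 2 rounds of linear amplification before hybridization. Arrays with the same specimen number were averaged. The labels do not say that each number is 1 animal, so p-values measure only the spread between these specimens.

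A plasma cell is the antibody-secreting end stage of a B cell. Its identity rests on the transcription factors Blimp-1 (Prdm1), Xbp1 and Irf4, and its secretory load is handled by the unfolded protein response and by degradation of misfolded glycoproteins. Pristane provokes granulomata rich in macrophages and neutrophils, in which dividing plasma cells accumulate and give rise to tumours in susceptible mice. Deregulated Myc drives growth and division in this disease.

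The captured material carried plasma cell transcripts in every specimen. Of 20 plasma cell markers on the array, 15 lay above the column median, the middle value of all probe sets of an array, in all 13 specimens. Jchain, the joining chain of IgA and IgM, lay between 12.63 and 13.23 on the log2 scale of the deposited values. Markers of other cells were present as well: 18 of 24 macrophage markers, among them Csf1r between 10.95 and 12.87, and 19 of 21 fibroblast and matrix genes lay above the column median in all 13 specimens. In these bulk samples, fewer cells of a type and less RNA per cell cannot be told apart. Column medians did not separate the days (5.07 ± 0.02 on day 33 and 5.06 ± 0.02 on day 17 of study 1, SD, n = 3 and 4, exact two-sided permutation p = 0.571, and 5.36 ± 0.02 and 5.35 ± 0.02 in study 2, n = 3 each, p = 0.9). The deposited values had already been normalized by RMA, so these medians do not measure the signal before that step. The signal of 3-prime over 5-prime control probe sets, a measure of RNA length, averaged 4.43 ± 0.63 on day 33 and 4.91 ± 0.13 on day 17 of study 1 (exact two-sided permutation p = 0.0571, the smallest that 3 against 4 specimens allow), and 4.51 ± 0.30 on day 33 and 4.70 ± 0.52 on day 17 of study 2 (exact permutation p = 0.8, where 3 against 3 cannot go below 0.1). In study 1 the day 33 averages of 4.783 and 4.791 lay just under the lowest day 17 average of 4.801. The higher of these belonged to specimen 14, whose arrays read 3.848 and 5.735, the latter above every day 17 array.

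Several specimens stood apart. In study 1, specimen 14 of day 33 had the lowest weight in the fit of specimen weights (0.392), and its 2 arrays correlated at 0.923, below the 0.991 of specimen 5 of that day. The day 33 array of study 1 whose title has no specimen number had the lowest 3-prime over 5-prime signal, 3.70. In study 2, the 2 arrays of specimens 2 and 3 of day 33 correlated at 0.901 and 0.928, below the 0.981 of specimen 1. The arrays of specimens 1 and 2 of that day carry different letters after the number, and the labels do not say whether they share an animal. With letters as separate specimens, day 33 of study 2 has 5 specimens. Specimens 11 and 12 of day 17 of study 1 had a male pattern, with the Y-linked Eif2s3y at 8.94 and 8.25 and Xist, expressed from the inactive X, at 5.26 and 5.19. The other 11 specimens had Xist between 10.57 and 12.17, so that sex and day are partly confounded in study 1. The titles of study 1 arrays carry dates: the earlier ones belong to 1 day 33 and 3 day 17 specimens and the later ones to 2 day 33 specimens and 1 day 17 specimen. No date was shared by the 2 days, and the only day 17 specimen with a later date was specimen 12, of male pattern. Differences within each date block are given below, and they hold neither the date nor the sex fixed.

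Of 7743 genes tested, 54.8% differed in the same direction in both studies: 1954 genes (25.2%) were higher on day 33 in both and 2293 (29.6%) were lower in both. The differences of the 2 studies correlated weakly across genes (Pearson r = 0.171, across genes, which are not independent replicates). No gene passed the test of the mean of both studies (0% called, limma with Benjamini-Hochberg adjustment at 0.05, lowest adjusted p = 0.0557, shared by 10 genes), although 330 genes (4.26%) were higher and 557 (7.19%) lower at an unadjusted p under 0.05. Of these 887 genes, 797 (89.9%) had the same sign in both studies. They were chosen on the mean of the same 2 differences, which favours equal signs, so this share does not measure agreement. In study 1 alone 0% were called (lowest adjusted p = 1, and 162 genes at an unadjusted p under 0.05), and in study 2 alone 70 genes were called, 23 higher (0.297%) and 47 lower (0.607%) on day 33. The difference between the studies was called for 0% of genes (lowest adjusted p = 0.161, and 594 genes at an unadjusted p under 0.05).

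The spread in that test was shared by all 30 captured specimens. Day 49 of study 2 had a median SD over genes of 0.618, against 0.219 to 0.326 on day 33 and 0.175 to 0.276 on day 17. Fitted on the 13 specimens of days 17 and 33 alone, the mean of both studies was called for 221 genes, 83 higher (1.07%) and 138 lower (1.78%) on day 33, of which 207 had the same sign in both studies, and leaving out only day 49 of study 2 gave 94. The 207 genes were likewise chosen on the mean, so their number does not measure agreement. With specimen weights the count of calls was 565. The count of calls therefore depended on how the spread was estimated.

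A stricter description of agreement, which uses no spread, is that every day 33 specimen lay on the same side of every day 17 specimen in both studies. This held for 36 genes higher on day 33 (0.465% of those tested) and 55 lower (0.71%). A further 50 genes were separated in opposite directions, 40 of them higher on day 33 in study 2. In study 1 alone 127 genes were separated as higher and 291 as lower, and in study 2 alone 1289 and 1027. Leaving out a specimen can only keep or raise these counts, and splitting an averaged specimen can only keep or lower them. Without specimen 5 of day 33 of study 1, the separated genes in both studies numbered 116 higher and 262 lower. Without specimen 14 of that day they numbered 106 and 93. With letters as separate specimens in study 2 they numbered 18 higher and 34 lower. Of the genes described below, Ggh, Ctsw, Snap23, Gabarap and Pim2 stayed separated upwards in both studies, while S100a8, S100a9, Mmp9, Zyx, Slc39a8, Srgn and Atp6v0a1 then overlapped in study 2. H3c4, Kif23, Rab26os, Pds5a, Nup155, Clk4, Polr2h and Supt16 stayed separated downwards, while Polr2a, Prpf3, Dnmt3b, Brca2 and Fap then overlapped.

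**Figure D1:**
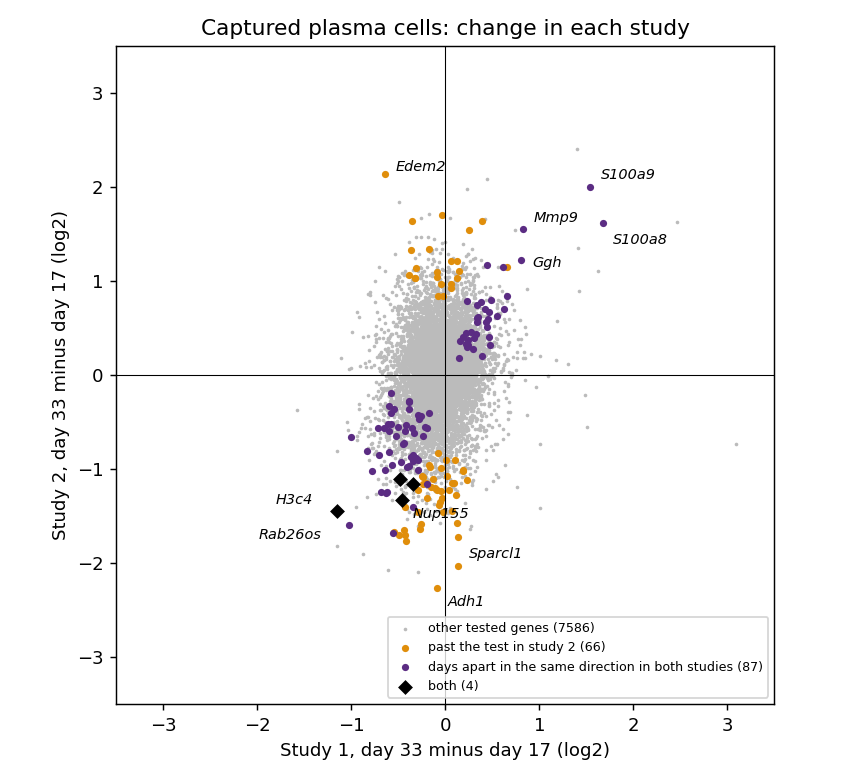
Difference between day 33 and day 17 (log2) in study 1 on the horizontal axis and in study 2 on the vertical axis, 1 point for each of the 7743 genes tested. S100a8, S100a9, Mmp9 and Ggh lie in the upper right, H3c4 and Rab26os in the lower left, and the genes past the test in study 2 spread along the vertical axis, with Edem2 at the top left and Adh1 at the bottom.

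The largest differences among the 36 genes separated upwards were in S100a9 and S100a8, the subunits of calprotectin, a calcium-binding protein that neutrophils and activated macrophages carry in large amounts. The genes named from here to the account of study 2, except Mki67, were chosen after their values were seen. S100a8 stood at 11.50, 9.74 and 9.50 on day 33 of study 1, against 7.51, 9.31, 8.75 and 8.74 on day 17, and at 11.58, 10.87 and 11.21 on day 33 of study 2, against 10.57, 8.49 and 9.74 on day 17. Every day 33 specimen average was above every day 17 specimen of its study, with the narrowest gap, between 9.50 and 9.31, in study 1. The average of 10.87 for specimen 2 joins arrays of different letters at 9.69 and 12.05, and with letters as separate specimens the lower one lies below 2 of the day 17 values. The mean difference was 1.65 ± 0.45 (SE, log2), a 3.13-fold higher level (adjusted p = 0.165 in limma over all captured specimens and 0.0415 with days 17 and 33 alone).

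S100a9 stood at 10.95, 9.54 and 8.74 on day 33 of study 1, against 7.15, 8.73, 8.65 and 8.29 on day 17, and at 10.78, 9.76 and 10.33 on day 33 of study 2, against 8.89, 7.34 and 8.64 on day 17. The groups again did not overlap, although in study 1 the lowest day 33 value, 8.74 in the array without a specimen number, was next to the highest day 17 value of 8.73. In study 2 the arrays of specimen 2 read 8.81 and 10.72, and the first of them lies below the highest day 17 value when letters are separate specimens. The mean difference was 1.77 ± 0.50, a 3.41-fold higher level (adjusted p = 0.165, and 0.0349 with days 17 and 33 alone). Within study 1, S100a9 differed by 1.51 between the specimens with earlier dates and by 1.11 between those with later dates, and S100a8 by 1.41 and 1.19. Without specimen 14 the mean difference was 1.47 for S100a9 and 1.33 for S100a8.

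The RefSeq promoter table (build GRCm38.p6) places S100a8 on the plus strand and S100a9 on the minus strand of chromosome 3, and H3c4, the histone gene described below, on chromosome 13. The 80 bases before each annotated start are shown because S100a9 and S100a8 had the largest increases among the separated genes and H3c4 the smallest unadjusted p of all genes. Capitals mark matches, on either strand, to the motif TATAAA, to its variant TATATA and to the CCAAT box.
S100a8, chr3:90668991-90669070, plus strand: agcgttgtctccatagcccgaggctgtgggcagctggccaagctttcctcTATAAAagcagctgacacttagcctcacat
S100a9, chr3:90695722-90695801, minus strand: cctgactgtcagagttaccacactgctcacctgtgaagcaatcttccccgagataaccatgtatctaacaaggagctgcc
H3c4, chr13:23575683-23575762, plus strand: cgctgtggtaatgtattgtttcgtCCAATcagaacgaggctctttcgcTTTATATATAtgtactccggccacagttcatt
TATAAA began 30 bases before the start of S100a8, and none of the 3 motifs lay in this window of S100a9. In H3c4, CCAAT began 56 bases before the start, and TATAAA on the opposite strand overlapped 2 matches to TATATA between 32 and 23 bases before the start. Of 32851 annotated promoters, 4.75% held TATAAA, 1.88% held TATATA and 15.3% held CCAAT in the same window. A match is a description and not a site.

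Mmp9, the gelatinase B of neutrophil granules and macrophages, stood at 5.76, 4.62 and 4.97 on day 33 of study 1, against 4.08, 4.55, 4.22 and 4.31 on day 17. Its values in study 2 were 6.04, 6.65 and 6.07 on day 33, against 4.85, 4.31 and 4.95 on day 17. It was above the column median in 4 specimens, all of day 33, so it entered the comparison only through the day on which it was high, and its difference is given as a description (0.82 in study 1 and 1.55 in study 2). With letters as separate specimens, the lowest day 33 value of study 2 was 4.68, within the range of day 17.

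The mean level of all 13 neutrophil markers on the array was 5.27 to 6.03 on day 33 and 4.77 to 5.12 on day 17 of study 1, and 5.82 to 6.02 on day 33 and 4.93 to 5.57 on day 17 of study 2, without overlap in either study. Without a filter on low values, the median difference of these markers was 0.47 in the mean of both studies, beside a median of 0.002 over all genes tested. Only 8 of the 13 passed the filter, some through the group in which they were high. The granule markers Ltf, Mpo and Cd177 were above the column median in no specimen, and S100a8, S100a9 and the cytokine receptor Csf3r were above it in all 13. Csf3r was 0.32 higher on day 33 in study 1 and 0.71 higher in study 2 (mean 0.52 ± 0.17, adjusted p = 0.215). Lcn2, an iron-sequestering granule protein, was 0.81 and 1.20 higher (mean adjusted p = 0.351). What neutrophil RNA in the captured areas contributes to S100a8, S100a9 and Mmp9 was not tested.

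Of 22 macrophage markers tested, 10 were higher on day 33 in both studies and 3 lower in both, with medians of 0.17 in study 1 and -0.10 in study 2, beside medians of -0.055 and 0.042 over all genes. Gpnmb, a membrane glycoprotein of lipid-laden macrophages, was the largest of them, at 10.19, 8.86 and 7.95 on day 33 of study 1, against 7.85, 8.30, 7.12 and 7.07 on day 17. In study 2 it stood at 9.00, 9.88 and 8.82 on day 33, against 8.35, 7.72 and 7.59 on day 17. The specimen averages were separated in study 2 only, where they overlapped with letters as separate specimens, and the mean difference was 1.38 ± 0.32 (adjusted p = 0.098, and 0.0416 with days 17 and 33 alone). The mean level of the 24 macrophage markers on the array was 9.19 in specimen 14 of day 33 of study 1. It was 8.22 and 7.99 in the other day 33 specimens, against 7.92 to 8.65 on day 17.

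Ggh, the lysosomal gamma-glutamyl hydrolase that trims folate polyglutamates, was separated upwards in both studies, also with letters as separate specimens. It stood at 6.93, 6.83 and 7.17 on day 33 of study 1, against 6.09, 6.36, 5.91 and 6.31 on day 17. Study 2 gave 9.42, 9.06 and 8.80 on day 33, against 7.85, 7.90 and 7.86 on day 17. The mean difference was 1.02 ± 0.29, a 2.02-fold higher level (adjusted p = 0.165, and 0.00666 with days 17 and 33 alone), and the difference was 0.73 and 0.69 within the date blocks of study 1. Ctsw, a cysteine protease best known from cytotoxic lymphocytes, was 0.62 higher in study 1 and 1.15 higher in study 2. Zyx, a focal adhesion protein, was 0.44 and 1.17 higher, and its other probe set, above the column median in 9 specimens, was 0.25 and 0.38 higher. The separation of Ctsw held with letters as separate specimens and that of Zyx did not. Of 15 T and NK cell markers on the array, 6 passed the filter, and 4 of these were higher in both studies and none lower in both. Their mean level over all 15 was 4.41 to 5.03 on day 33 and 4.35 to 4.50 on day 17 of study 1, and 4.87 to 5.07 on day 33 and 4.90 to 5.07 on day 17 of study 2. Zap70 and Il7r were above the column median in all 13 specimens, Cd2 and Gzma in 8, and Cd3e and Cd4 in 7. Another 7 of the 15, among them Cd8a, Cd3g, Nkg7, Ncr1 and Foxp3, were above it in no specimen. The part of lymphocyte RNA in the level of Ctsw was not tested.

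Further examples among the 36 genes, picked for their known roles and not as a theme of the list, were Snap23, a fusion protein of the plasma membrane (0.65 in study 1 and 0.85 in study 2), Atp6v0a1, a subunit of the proton pump (0.34 and 0.60), Gabarap, an autophagosome protein (0.43 and 0.57), and Srgn, the core protein of granule proteoglycan (0.45 and 0.59). Slc39a8, a zinc importer, was 0.55 and 0.62 higher. Pim2, a survival kinase of B lineage cells, was 0.24 and 0.32 higher (mean adjusted p = 0.391).

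**Figure D2:**
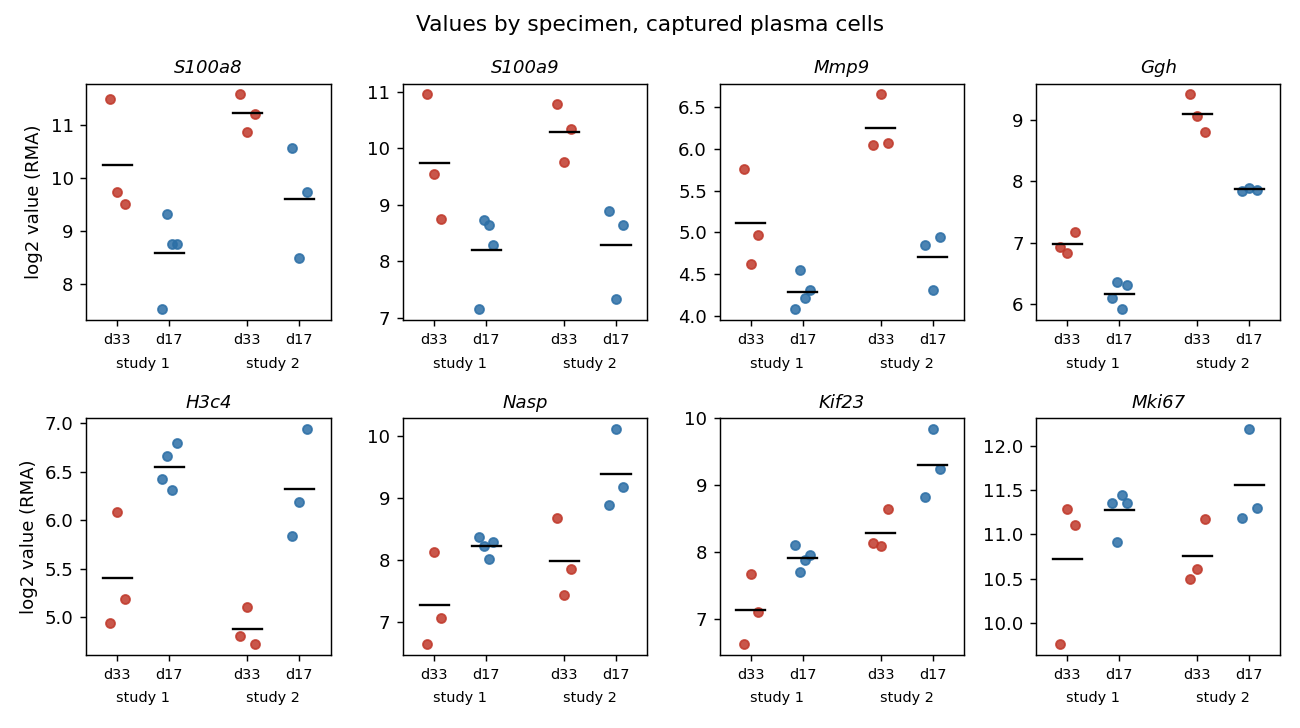
Log2 value of each specimen on day 33 (red) and day 17 (blue) in study 1 and study 2, with a bar at the group mean, for 8 genes. In the upper row every day 33 specimen average lies above every day 17 specimen of its study, and in the lower row H3c4 and Kif23 lie below in both studies, while Nasp and Mki67 overlap in study 1.

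Several genes that act in dividing cells were lower on day 33, of which H3c4, Nasp and Kif23 were picked for their values. H3c4, 1 of the replication-dependent histone H3 genes that are transcribed in S phase, had the smallest unadjusted p of all genes in the mean of both studies (8.05e-06). It stood at 4.94, 6.08 and 5.19 on day 33 of study 1, against 6.43, 6.66, 6.31 and 6.80 on day 17. Its values in study 2 were 4.80, 5.10 and 4.72 on day 33, against 5.84, 6.19 and 6.94 on day 17. The groups did not overlap in either study. H3c4 was above the column median in 7 specimens of day 17 and 2 of day 33. It therefore passed the filter only through the day on which it was high, and its p-values carry that limit. All day 33 values of study 2 were below the column median, so the size of the fall is less certain than its direction. The difference was -1.15 ± 0.32 in study 1 and -1.45 ± 0.34 in study 2, where it passed the test (adjusted p = 0.0421), and the mean was -1.30 ± 0.23 (adjusted p = 0.0557, and 0.0138 with days 17 and 33 alone). Within the date blocks of study 1 it was -0.44 and -1.60. Histone genes are near-identical in sequence, and the part of related copies in the signal of its only probe set was not tested.

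Nasp, a chaperone that carries histones to chromatin, stood at 6.64, 8.13 and 7.06 on day 33 of study 1, against 8.37, 8.22, 8.01 and 8.29 on day 17, with specimen 5 inside the range of day 17. In study 2 it stood at 8.67, 7.44 and 7.86 on day 33, against 8.89, 10.11 and 9.18 on day 17, without overlap. The mean difference was -1.18 ± 0.25 (adjusted p = 0.0557, and 0.0371 with days 17 and 33 alone). Between the specimens with earlier dates the difference was only -0.09, against -1.37 between those with later dates.

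Kif23, a kinesin of the cleavage furrow, stood at 6.62, 7.67 and 7.10 on day 33 of study 1, against 8.10, 7.70, 7.88 and 7.95 on day 17. Study 2 gave 8.13, 8.09 and 8.64 on day 33, against 8.82, 9.84 and 9.25 on day 17. The days did not overlap in either study, and the mean difference was -0.90 ± 0.23 (adjusted p = 0.142, and 0.036 with days 17 and 33 alone). Mki67, the Ki-67 proliferation antigen, stood at 9.76, 11.29 and 11.11 on day 33 of study 1, against 11.36, 10.92, 11.45 and 11.36 on day 17, with overlap. Its values in study 2 were 10.50, 10.61 and 11.17 on day 33, against 11.19, 12.19 and 11.30 on day 17, without overlap. Its mean difference of -0.68 ± 0.31 did not pass (adjusted p = 0.392). With letters as separate specimens, both Nasp and Mki67 overlapped in study 2.

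Of 31 cell cycle genes tested, 21 were lower on day 33 in both studies and 1 was higher in both, with medians of -0.55 in study 1 and -0.28 in study 2. In the mean of both studies 8 were lower at an unadjusted p under 0.05 and none was called. The kinesin genes Kif20a (-0.79 and -0.63) and Kif11 (-0.59 and -1.01), the centromere genes Cenpe (-0.43 and -1.18) and Cenpf (-0.71 and -0.75) and the checkpoint kinase gene Bub1 (-0.90 and -0.56) had the largest mean differences of the list. Aurkb, Plk1, Cenpa and Ube2c were lower in study 1 (-0.73, -0.35, -0.64 and -0.56) and higher in study 2 (0.44, 0.31, 0.56 and 0.44). In study 1 the mean level of the 32 cell cycle genes on the array was 6.75 in specimen 14 and 8.10 and 7.86 in the other day 33 specimens, against 7.99 to 8.21 on day 17. In study 2 it was 8.13 to 8.49 on day 33 and 8.11 to 8.92 on day 17, with overlap. Without specimen 14 the median of the list in the mean of both studies was -0.19 in place of -0.37. Of 25 genes that Myc activates in ribosome biogenesis and growth, 13 were lower in both studies and none was higher in both (medians -0.41 in study 1 and -0.02 in study 2). In study 1 the mean level of the 26 on the array was 8.31 in specimen 14 of day 33. It was 9.24 and 8.89 in the other day 33 specimens, against 9.15 to 9.35 on day 17.

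Further examples among the 55 genes separated downwards, again picked and not a theme of the list, follow. Rab26os, an antisense transcript at Rab26, differed by -1.02 in study 1 and -1.59 in study 2. Pds5a, which regulates cohesin on chromosomes, stood at 8.32, 8.28 and 7.69 on day 33 of study 1, against 8.49, 8.40, 8.80 and 8.90 on day 17, and at 4.85, 4.52 and 4.73 on day 33 of study 2, against 6.24, 5.63 and 7.28 on day 17. The studies differed in its level by more than the days did. All day 33 values of Pds5a in study 2 were below the column median, as were the values of 4.48 and 4.59 of Rab26os. The sizes of these falls in study 2 are therefore less certain than their direction. Nup155, a scaffold nucleoporin, differed by -0.46 ± 0.26 in study 1 and -1.33 ± 0.27 in study 2, where it passed the test (adjusted p = 0.027). Its other probe set, above the column median in all 13 specimens, differed by -0.15 and -0.81 and did not pass. Clk4, a kinase of splicing factors, differed by -0.68 and -1.24, and Polr2h, a subunit shared by the nuclear RNA polymerases, by -0.62 and -1.24. The list of separated genes also held Polr2a, the largest subunit of RNA polymerase II (-0.54 and -0.36), Prpf3, a splicing factor of the U4/U6 particle (-0.65 and -0.57), Supt16, a histone chaperone of transcription (-0.60 and -0.59), Dnmt3b, a DNA methyltransferase (-0.52 and -0.65), and Brca2 of homologous recombination (-0.45 and -0.74). Of 15 splicing and nuclear RNA genes tested, 11 were lower in both studies and none was higher in both (medians -0.19 and -0.27, none called).

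Within study 1, the differences of several of these genes were smaller between the specimens with earlier dates than between those with later dates. They were -0.30 and -0.84 for Kif23, -0.32 and -1.24 for Rab26os, -0.10 and -1.03 for Polr2h, -0.29 and -0.86 for Clk4, -0.20 and -0.56 for Nup155 and -0.11 and -0.49 for Mki67. For Pds5a they were -0.45 and -0.40. Among the higher genes they were 0.42 and 0.81 for Mmp9, 0.23 and 0.45 for Zyx, 0.63 and 0.48 for Ctsw and 1.51 and 0.77 for Gpnmb. Each block holds 1 specimen on one side and does not hold the date or the sex fixed, so these are values with no test.

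In study 2 alone, 70 genes passed the test, and all 70 had no overlap between the days of that study. Of these, 42 (60%) had the same sign in study 1, beside 54.8% of all genes. They were 33 of the 47 lower genes (70.2%) and 9 of the 23 higher ones (39.1%). The 54.8% pools both directions and is not the base share of either. Over all genes the median was -0.055 in study 1 and 0.042 in study 2, and more genes were lower in both (2293) than higher in both (1954). Among the 70 genes, H3c4, Nup155, Kyat3 and Elp2 were separated in the same direction in both studies, and 3 were separated in opposite directions: Cyhr1 (1.32 in study 2 and -0.37 in study 1), Stub1 (1.04 and -0.33) and D16Ertd472e (-1.02 and 0.19). With letters as separate specimens, D16Ertd472e overlapped in study 2, with day 33 values up to 7.69 and day 17 values from 7.44. The count of 70 fell to 0 without specimen 1 of day 33, to 2 without specimen 1 of day 17, to 5 without specimen 3 of day 33 and to 8 without specimen 3 of day 17, so that each of these calls was lost when 1 specimen was left out.

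Edem2, which feeds misfolded glycoproteins into degradation from the endoplasmic reticulum, rose most. It stood at 9.76, 9.56 and 9.71 on day 33 of study 2, against 6.86, 8.29 and 7.47 on day 17, a difference of 2.13 ± 0.46 or 4.39-fold (adjusted p = 0.027). In study 1 it stood at 7.63, 9.03 and 7.77 on day 33, against 8.86, 7.98, 9.08 and 9.21 on day 17, a difference in the opposite direction of -0.64 ± 0.43. The difference between studies did not pass (adjusted p = 0.261). Arfgap3, a regulator of Golgi vesicle coats, rose by 1.70 ± 0.38 in study 2 (adjusted p = 0.0324) and differed by -0.04 in study 1. Cdk2ap2, a chromatin-associated regulator of Cdk2, rose by 1.64 ± 0.34 in study 2 (adjusted p = 0.027) and differed by -0.36 in study 1.

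Macrod1, which removes ADP-ribose from proteins, was the only one of the 4 largest increases with the same sign in study 1. It stood at 8.24, 8.15 and 8.57 on day 33 of study 2, against 6.32, 6.91 and 6.80 on day 17 (1.64 ± 0.38, 3.12-fold, adjusted p = 0.0412). In study 1 it stood at 6.97, 7.25 and 7.48 on day 33, against 6.65, 7.01, 6.81 and 6.90 on day 17 (0.39 ± 0.36, with overlap). Of 27 tested genes for protein folding and secretion, the unfolded protein response included, only Edem2 passed the test in study 2, 6 were higher in both studies and 11 lower in both. Hspa5, the main chaperone of the endoplasmic reticulum, differed by -0.02 in study 1 and -0.33 in study 2, and Herpud1, a degradation factor, by -0.04 and 1.34.

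Adh1, alcohol dehydrogenase 1, which also oxidizes retinol, fell most in study 2. It stood at 4.38, 5.39 and 4.77 on day 33, against 7.42, 7.13 and 6.75 on day 17, a difference of -2.26 ± 0.36 (adjusted p = 0.0043), with 2 of the day 33 values below the column median. In study 1 it stood at 5.74, 5.74 and 5.14 on day 33, against 5.64, 5.59, 5.49 and 5.78 on day 17, and the difference was -0.09 ± 0.33. Sparcl1, a matrix glycoprotein, and Tek, the angiopoietin receptor of endothelium, fell by 2.03 ± 0.45 and 1.73 ± 0.37 in study 2 (adjusted p = 0.0287 and 0.027) and differed by 0.13 and 0.14 in study 1. Brwd1, a bromodomain protein of chromatin, fell by 1.77 ± 0.38 in study 2 (adjusted p = 0.027) and differed by -0.42 in study 1. All day 33 values of Tek and Brwd1 in study 2 were below the column median, so the sizes of these falls are less certain than their direction. Of the other probe sets of Brwd1, the 2 above the column median in 8 or 9 specimens differed by -0.44 and -0.29 in study 2 and did not pass.

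Stromal marker lists did not share 1 direction in study 2. The 11 endothelial genes tested had medians of -0.50 in study 2 and 0.05 in study 1, with Tek called. The 7 adipocyte genes had medians of -0.90 and -0.17, with none called. The 5 mesothelial genes had medians of 0.33 in study 2 and -0.18 in study 1, and the mean level of the 8 on the array was 5.92 to 6.67 on day 33 and 5.39 to 5.93 on day 17 of study 2. The 4 smooth muscle genes had medians of 0.09 and 0.05. Of the 21 fibroblast and matrix genes tested, 15 were lower in both studies and none was higher in both, with medians of -0.48 in study 2 and -0.20 in study 1. Their mean level was 8.74 to 9.38 on day 33 and 9.14 to 9.78 on day 17 of study 2, and 8.87 to 9.14 on day 33 and 8.91 to 9.61 on day 17 of study 1, with overlap in both. Postn, a matrix protein of activated fibroblasts, differed by -1.09 ± 0.38 in study 2 and -0.63 ± 0.36 in study 1 (mean adjusted p = 0.185), and Fap, fibroblast activation protein, was separated downwards in both (-0.88 in study 2 and -0.32 in study 1). The part of stromal RNA in the falls of Adh1, Sparcl1 and Tek was not tested.

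Other genes called in study 2 with the same sign in study 1 were Zfp148, a zinc finger transcription factor (-1.70 and -0.43, adjusted p = 0.0124 in study 2), Fzd6, a Wnt receptor (-1.63 and -0.27, adjusted p = 0.0113), and Mphosph9, a protein of the centriole (-1.67 and -0.54, adjusted p = 0.0166). Within the date blocks of study 1, Zfp148 differed by -0.05 and -0.72, Fzd6 by -0.19 and -0.59 and Mphosph9 by -0.43 and -0.42. Skp2, the ubiquitin ligase subunit that degrades the cell cycle inhibitor p27, fell by 1.46 in study 2 and differed by -0.29 in study 1. For Zfp148, another probe set differed by 0.40 in study 2, in the opposite direction, without passing. Among called genes with opposite signs were Jak3, a cytokine receptor kinase (0.84 in study 2 and -0.07 in study 1), Ebf3 (-1.12 and 0.24), and Gzma, granzyme A (-1.15 and 0.10).

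**Figure D3:**
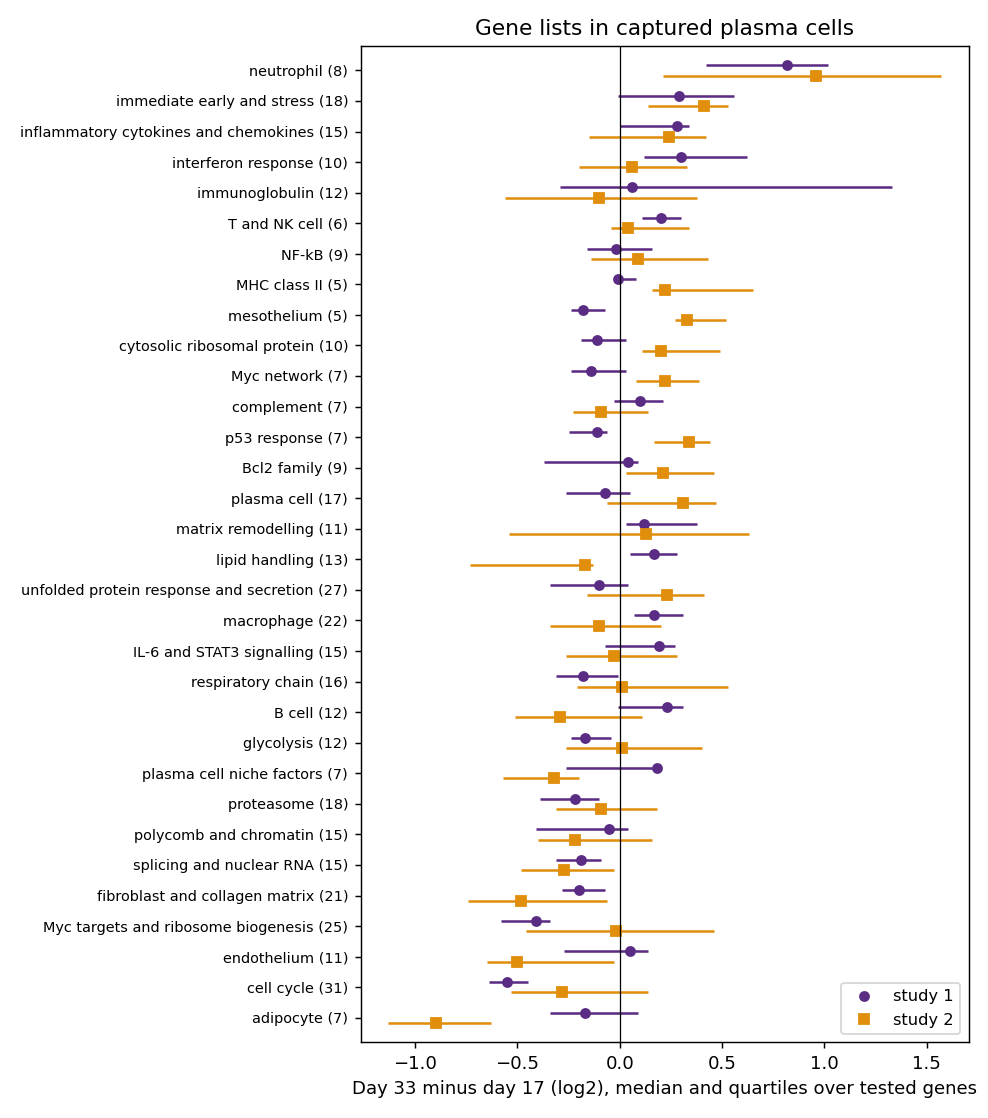
Median difference between day 33 and day 17 (log2) over the tested genes of each list with at least 5 of them, with a line between the quartiles, for study 1 (circles) and study 2 (squares); the number tested is in brackets. The neutrophil list lies highest, with medians of 0.82 and 0.96 over the 8 markers that passed the filter, some of them through their high specimens, and the cell cycle, fibroblast and splicing lists lie below 0 in both studies.

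No transcript that defines plasma cells passed the test between the days. Of 17 markers tested, 1 was lower at an unadjusted p under 0.05 in the mean of both studies, 3 were higher in both studies and 3 lower in both. Sdc1, the surface marker CD138, stood at 9.01, 9.51 and 9.79 on day 33 of study 1, against 9.47, 9.23, 9.73 and 9.43 on day 17, and at 9.76, 9.89 and 10.04 on day 33 of study 2, against 8.82, 9.66 and 9.79 on day 17. Its mean difference was 0.22 ± 0.24. Another probe set of Sdc1 differed by -0.66 in study 1 and 0.92 in study 2, and a further one by -0.48 and 0.32. Both were above the column median in all 13 specimens, and neither passed. Xbp1 was above every day 17 specimen in study 2 (12.56, 12.98 and 12.90 on day 33, against 12.06, 12.52 and 12.51) and overlapped in study 1 (mean 0.30 ± 0.27). The mean differences of Prdm1 (0.16 ± 0.30), Irf4 (0.05 ± 0.35), Jchain (0.05 ± 0.32), Tnfrsf17, the BCMA receptor (0.07 ± 0.43), and Slamf7 (-0.38 ± 0.28) did not pass, with adjusted p from 0.664 to 0.973.

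Myc differed in opposite directions. It stood at 9.42, 10.85 and 10.08 on day 33 of study 1, against 10.68, 10.27, 10.96 and 10.62 on day 17. In study 2 it stood at 10.26, 10.59 and 10.91 on day 33, against 8.70, 10.16 and 9.94 on day 17, where the days did not overlap. The differences were -0.51 ± 0.42 and 0.98 ± 0.45, and the difference between studies did not pass (unadjusted p = 0.0226, adjusted p = 0.599). The probe set does not separate the inserted from the endogenous gene. Il6, the growth factor of these tumours, differed by 0.51 and 0.53 (mean 0.52 ± 0.48, adjusted p = 0.735). It was above the column median in 6 specimens, all of study 2, so its difference in study 1 lay among values below that median. Its receptor gene Il6ra differed by -0.55 and -0.03 (mean -0.29 ± 0.34, adjusted p = 0.806). The other Il6ra probe set, above the column median in 6 specimens, differed in the opposite direction, by 0.31 and 0.07, and did not pass.

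Immunoglobulin genes varied widely between specimens of the same day, and none of the 12 tested was called. Ighm, the IgM heavy chain, was 14.72, 13.65 and 9.37 on day 33 of study 2, against 14.60, 14.64 and 14.72 on day 17. The low value belonged to specimen 3, whose arrays read 7.47 and 11.27. In study 1 it was 12.47, 14.06 and 14.14 on day 33, against 14.13, 14.26, 14.02 and 14.26 on day 17, with the low value in specimen 14. Igha, the IgA heavy chain, was between 13.79 and 14.70 on day 33 and between 12.97 and 14.47 on day 17 of study 2, and between 14.20 and 14.38 in all specimens of study 1.

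Ighg3, the IgG3 heavy chain, was 11.40 in specimen 14 of day 33 of study 1, with 11.40 and 11.41 in its arrays, and at most 7.72 in every other specimen. In the day 33 specimen of study 1 without a number, Igk was 10.85 and Igkv19-93 was 9.40, against 6.47 to 7.47 and 5.05 to 6.20 on day 17. Single specimens of day 17 stood apart as well: in study 2, Igk was 10.34 in specimen 3, against 8.70 and 8.66 in the other 2, and Igha was 14.47 in specimen 2, against 12.97 and 13.21. Probe sets of related immunoglobulin segments share sequence, and those annotated to Ighm disagreed in sign, so that values of single segments are uncertain.

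**Figure D4:**
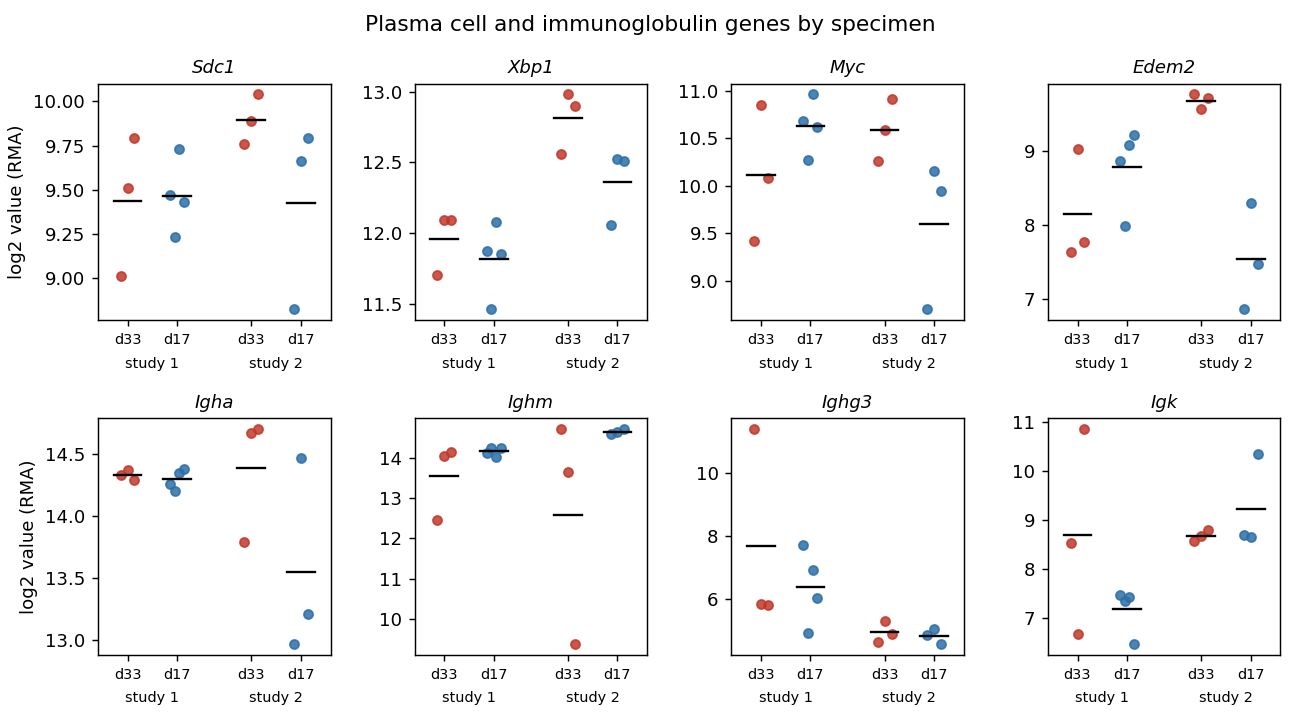
Log2 value of each specimen on day 33 (red) and day 17 (blue) in study 1 and study 2, with a bar at the group mean. Sdc1 overlaps between days in both studies, Edem2 is separated in study 2 only, and single specimens stand apart for Ighm (9.37 in study 2), Ighg3 (11.40 in study 1) and Igk (10.85 on day 33 of study 1 and 10.34 on day 17 of study 2).

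Immediate early and stress genes, which respond within minutes to stimulation and to tissue handling, were higher on day 33 in both studies for 10 of 18 tested and lower in both for none. None was called, and the medians were 0.29 in study 1 and 0.41 in study 2. Jun (0.56 and 0.80), Ier3 (0.56 and 0.66) and Fos (0.74 and 0.48) were among them. Of 15 inflammatory cytokine and chemokine genes, 8 were higher in both and 2 lower in both (medians 0.28 and 0.24, none called), and of 10 interferon response genes 5 were higher in both and none lower in both (medians 0.30 and 0.06). In study 1 the mean level of the immediate early list was 7.28 in specimen 14 of day 33. It was 6.51 and 6.65 in the other day 33 specimens, against 6.30 to 6.91 on day 17. The cytokine list was 6.87 in specimen 14 and 6.06 and 6.05 in the others, against 6.03 to 6.29. For the interferon list these levels were 6.51, 5.56 and 5.82, against 5.42 to 6.05. Apart from specimen 14, the day 33 levels of these lists in study 1 thus lay within the range of day 17. Of 18 proteasome genes, 10 were lower in both studies and 1 was higher in both. Their mean level in study 1 was 9.16 in specimen 14 of day 33. It was 9.71 and 9.39 in the other day 33 specimens, against 9.64 to 9.76 on day 17.

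The other days of captured cells place these values in the time course. In study 1, S100a9 averaged 8.51 ± 1.00 on day 7, 8.21 ± 0.73 on day 17, 9.74 ± 1.12 on day 33 and 9.30 ± 1.29 on day 46 (SD, n = 4, 4, 3 and 3), and stood at 5.92 in the single specimen of day 104. In study 2 it averaged 9.00 ± 0.44 on day 7, 8.29 ± 0.83 on day 17, 10.29 ± 0.51 on day 33, 9.19 ± 1.78 on day 49 and 7.74 ± 0.42 on day 105 (n = 3 each). In both studies day 33 had the highest mean and the last day the lowest. In study 1, H3c4 averaged 5.65 ± 0.44 on day 7, 6.55 ± 0.22 on day 17, 5.40 ± 0.60 on day 33 and 5.67 ± 0.27 on day 46, and stood at 6.47 in the specimen of day 104. In study 2 it averaged 6.13 ± 0.69 and 6.32 ± 0.56 on days 7 and 17, 4.87 ± 0.20 on day 33, 4.27 ± 0.36 on day 49 and 4.67 ± 0.33 on day 105, so that in study 2 the later days were as low as day 33 and in study 1 the last was not. Mki67 was 10.72 ± 0.83 on day 33 and 11.35 ± 0.34 on day 46 of study 1, against 10.76 ± 0.36 on day 33 and 10.00 ± 1.46 on day 49 of study 2. These later values are given as a description and were not tested.

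**Figure D5:**
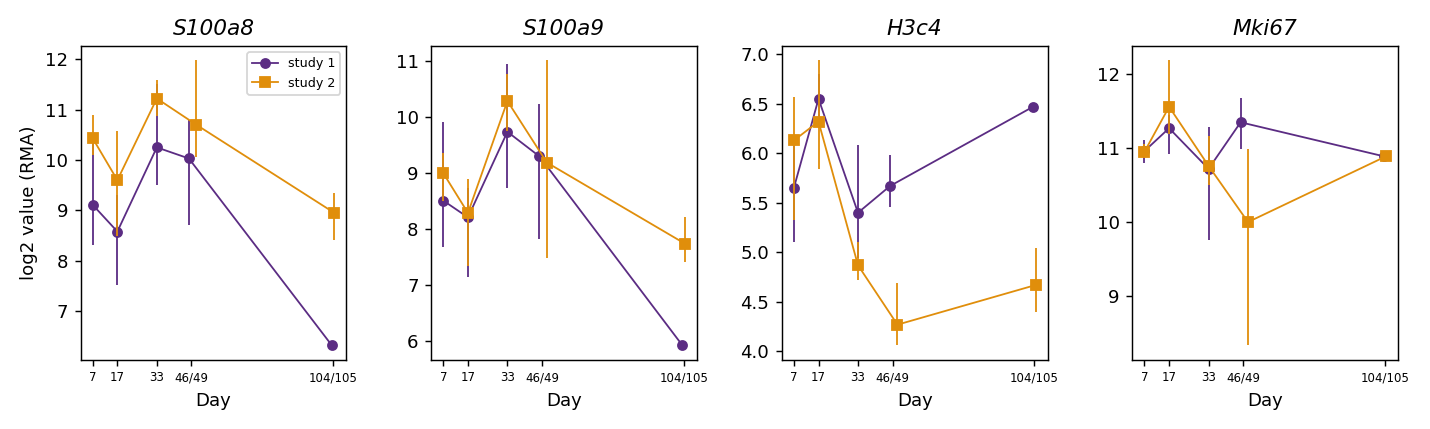
Mean log2 value over specimens by day of capture in study 1 (circles) and study 2 (squares), with a line between the lowest and the highest specimen, for 4 genes. S100a8 and S100a9 peak on day 33 in both studies, H3c4 is low on day 33 in both, and Mki67 differs between the studies at day 46 and day 49.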

How the data were processed

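Plasma cells were laser-captured from granulomata, and amplified RNA was hybridized to mouse arrays. The authors deposited log2 values for 82 arrays and 22690 probe sets, and the submitters' processing notes name RMA and Partek, with no version in the sources used here. No column of the table was without a sample. Precision is limited by the number of specimens, 3 or 4 in each compared group.

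Of the probe sets, 20380 had 1 gene symbol in the platform annotation (691 several, 1555 none, 64 controls), and 20351 symbols were updated by gene identifier. Each of 12393 genes was represented by its brightest such probe set, and 7743 genes above the column median in at least 3 of 13 specimens were tested. Arrays with the same specimen number were averaged. limma 3.58.1 in R 4.3.3 was fitted to all 30 captured specimens as 10 groups of study and day (20 residual degrees of freedom), with contrasts of day 33 minus day 17 in each study, their equally weighted mean and their difference, and Benjamini-Hochberg adjustment at 0.05. Quality values were compared with exact permutation tests (scipy 1.17.1). The code was tested on simulated data.

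Named genes were the 4 largest increases and decreases past the threshold in a study, up to 10 of each, immunoglobulins left out, in the mean and up to 6 between studies (none passed), up to 4 per list past the threshold, 12 plasma cell, Myc, Mki67 and Il6 pathway genes whatever their values (1 of them is not reported here), and 18 genes of the separated or top-ranked sets, chosen after their values were seen, as were the further examples. The members, the lists and the choice of comparison were made with earlier results of these data known. The specimen numbers of study 2 did not pair the samples (correlations of deviations 0.017, -0.175 and 0.213).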

Additional observations from a re-analysis of the deposited data

Results flagged for a closer look

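Dixon's test for a single far value was applied to the 4 specimens of day 17 of study 1, the only compared group of that size, for 49 genes. Chance flags about 1 group in 20, and 3 were found. Slamf7 was 6.75 in specimen 12, against 7.68 to 7.76 in the other specimens (ratio of gap to range 0.915). Igkv19-93 was 5.05 in specimen 12, against 6.04 to 6.20 (0.862). Igk was 6.47 in specimen 4, against 7.35 to 7.47 (0.888).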

How the results depend on the processing

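The count of genes called in the mean of both studies, 0, became 221 with only the specimens of days 17 and 33, 94 without day 49 of study 2, 18 with arrays not averaged and the specimen as a random block, 3 with the letters of study 2 titles as separate specimens, 17 with all probe sets, 565 with array weights, 2 with the 3-prime to 5-prime difference as a covariate, 1 in an additive model and 50 with the title date as a block in study 1. Leaving out 1 specimen at a time gave 0 to 20. In study 2 the count of 70 became 37 after quantile normalization, 719, 512, 267, 257, 121, 1395 and 143 under the same alternatives in that order (days 17 and 33 only, without day 49, random block, letters, probe sets, weights, covariate), 43 with sex as a covariate and 0 to 85 without 1 specimen. With specimen number as a replicate block in study 2 it was 202. Study 1 gave 0 to 1 and the difference between studies 0 to 1 without 1 specimen, and that difference gave 1 with the random block, 85 with array weights and 2 without day 49. Genes separated in both studies numbered 18 higher and 34 lower with letters as specimens, 62 higher with no filter, and 39 to 116 higher and 62 to 262 lower without 1 specimen. The definition of separation fixed the direction, but not the size, of these changes. The share of genes with the same sign in both studies lay between 49.9% and 60.4% without 1 specimen. The causes of these shifts were not tested, apart from the smaller spread when day 49 was left out. Medians of the neutrophil, cell cycle, fibroblast and splicing lists kept their sign under each alternative run.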
